A study of Mus musculus with 7 samples.

Results

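The long HuR sites are stretches of 1000 bases or more that the authors' peak caller listed in immunoprecipitations of HuR from CT26.WT, a cell line grown from a colon carcinoma of a mouse. HuR, encoded by Elavl1, is an RNA-binding protein that holds U-rich and AU-rich stretches of mRNA, often in the part after the coding sequence, and is known for keeping short-lived mRNAs stable. The last exon of a mammalian mRNA is usually its longest and carries most of that part. In RNA immunoprecipitation sequencing (RIP-seq), an antibody pulls a protein and its RNA from a cell extract, and sites are stretches where the recovered reads exceed a control.

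The series has 3 libraries precipitated with HuR antibody, 3 with IgG and 1 made from input RNA, all from CT26 cells labelled wild type and given no treatment. The site lists come from HuR immunoprecipitations 1, 2 and 3, called lists 1, 2 and 3 below. No values of the IgG or input libraries were used here, read depth is unknown, and the labels do not say whether the immunoprecipitations came from separate cultures. Which control the caller's folds rest on is not stated, so a long site is a listed site and not shown here to exceed IgG. Site lists hold no expression level; of 14 epithelial and colon markers 3 had any listed site (Krt18, Krt20 and Tjp1), and of 12 markers of other cells 3 had one (Acta2, Alb and Hbb-bs), none of them long.

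Members were all sites with a listed length of 1000 or more, except those in a merged region that held a site of every list. The members were thus chosen by measured values, namely site length and overlap between lists. This gave 1062 of 18072 sites (5.88%) in 906 of 6277 genes (14.4%): 180 of 4722 sites in list 1, 318 of 5384 in list 2 and 564 of 7966 in list 3. They made up 3.81%, 5.91% and 7.08% of the sites of lists 1, 2 and 3, and 19.4%, 30.4% and 40.4% of the listed bases. Of the genes with a site in lists 1, 2 and 3, 5.05%, 8.63% and 13.8% had a long one. The regions of all lists held 49 other sites of 1000 bases or more, which were left out. The shorter sites used for comparison are the 16422 sites under 1000 bases outside the same regions. Length, fold, score, FDR and overlap all come from the calls that chose the members, so their values are a description without a test.

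Long sites had a median length of 1346, 1408.5 and 1497.5 bases in lists 1, 2 and 3, against 170, 153 and 145 bases for shorter sites. Of the 1062 long sites, 250 reached 2000 bases, with 27, 67 and 156 in lists 1, 2 and 3. Just inside the limit lay sites of Proser1 and Rbpj with 1000 bases each (folds 5.59 and 6.72) and of Pttg1 with 1002 bases (fold 4.97), all in list 1. Just outside it lay sites of 999 bases in 1110004F10Rik (list 3, fold 5.69), Efna4 (list 2, fold 5.83) and Ndfip1 (list 3, fold 5.06).

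The fold divides a site's signal by the control's, and the score is the negative log10 of the caller's p, times 10. Long sites had lower folds and higher scores than shorter sites in each list. The median fold was 6.07 for long sites against 7.28 for shorter sites in list 1, 5.27 against 6.44 in list 2 and 7.18 against 8.41 in list 3. The median score was 141 against 85.8, 121 against 77.7 and 114 against 82.1 in the same order. A score of 70 or more was reached by 82.6% of long sites and 63.9% of shorter sites. The caller's FDR, read as percent, had a median of 14.9% for long sites against 15.6% for shorter sites in list 1, 12.8% against 13% in list 2 and 9.92% against 9.7% in list 3.

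**Figure D1:**
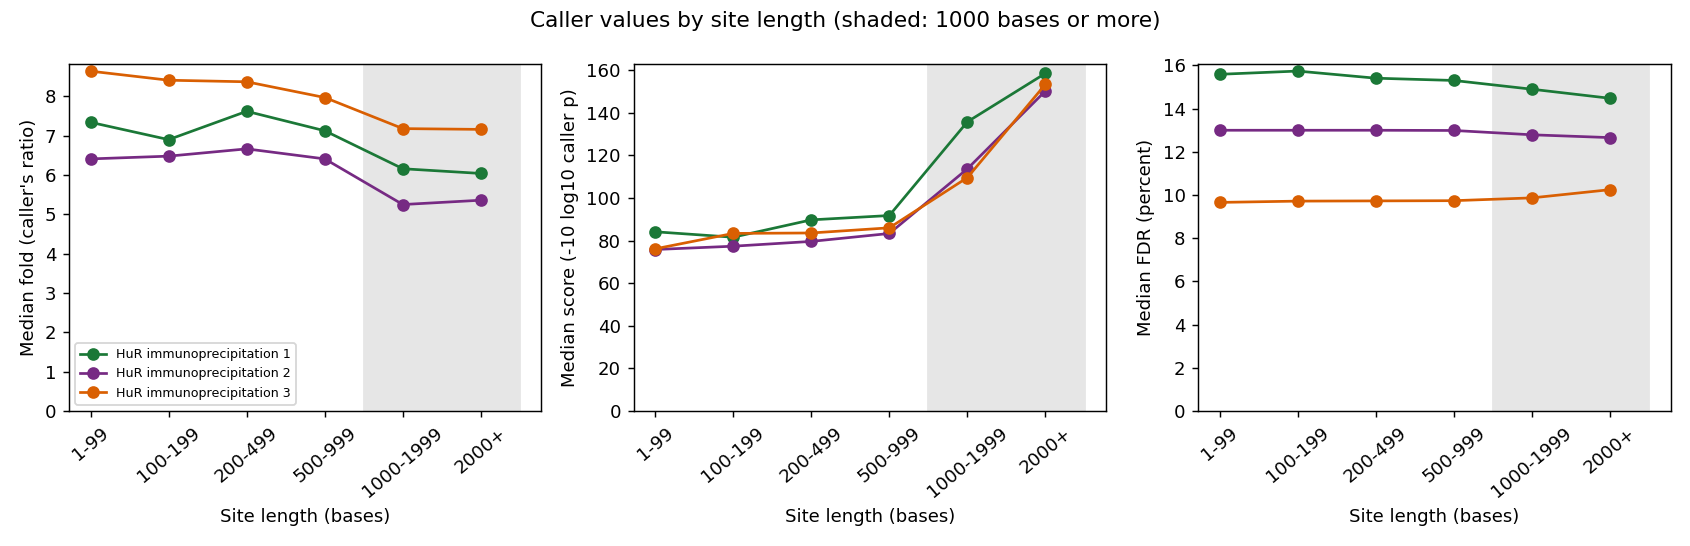
Median fold, median score and median FDR (percent) of the sites outside regions of all 3 lists, by site length in bases, with a line for each HuR immunoprecipitation; the shaded part holds sites of 1000 bases or more. Folds fall and scores rise at the long end in every list: at 2000 bases or more the median score is 158, 150 and 153 in lists 1, 2 and 3.

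The longest members lay in genes for cell adhesion, RNA silencing and protein turnover, and most were listed in 1 immunoprecipitation. The longest, 13386 bases on chromosome 16 (24797943 to 24811328, mm39), lay in Lpp, which encodes a LIM domain protein of cell adhesions, with a fold of 13.4 and a score of 259 in list 3. Lpp had other, shorter sites in all 3 lists, of 110 to 202 bases, and none overlapped the long one. The second, 11173 bases on chromosome 15 (72967693 to 72978865), lay in Ago2, the argonaute that cuts target RNA in silencing, with a fold of 17.2 and a score of 2901 in list 3. Its FDR of 64.78% was the highest among the long sites of list 3. Neither list 1 nor list 2 listed anything within it, while list 2 had Ago2 sites of 182 and 196 bases elsewhere in the gene.

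Purb, a gene for a protein that binds purine-rich nucleic acid, had 8301 bases on chromosome 11 (6417617 to 6425917) with a fold of 12.7 and a score of 1101 in list 1, and no site in the other lists. The sites of Lpp, Ago2 and Purb had scores far above the median of their lists and no partner in another list.

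Ube3a, which encodes the ubiquitin ligase E6AP, was the exception among the 10 longest. Its site on chromosome 7 ran from 58954558 to 58960517 in list 2 (5960 bases, fold 4.72) and from 58954558 to 58960592 in list 3 (6035 bases, fold 12.3). List 1 had a Ube3a site of 267 bases elsewhere. The other longest sites were in Usf3, a transcription factor gene (7053 bases, fold 4.64, list 2), Rlim, a ubiquitin ligase gene (6881 bases, fold 6.74, list 3), Fem1b, a gene for an adaptor of ubiquitin ligases (5908 bases, fold 6.08, list 3), and Tnpo1, the nuclear import receptor transportin 1 (5602 bases, fold 9.8, list 3). None of these 4 overlapped a site of another list, and the score of the Rlim site, 53.3, lay near the lowest listed score.

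**Figure D2:**
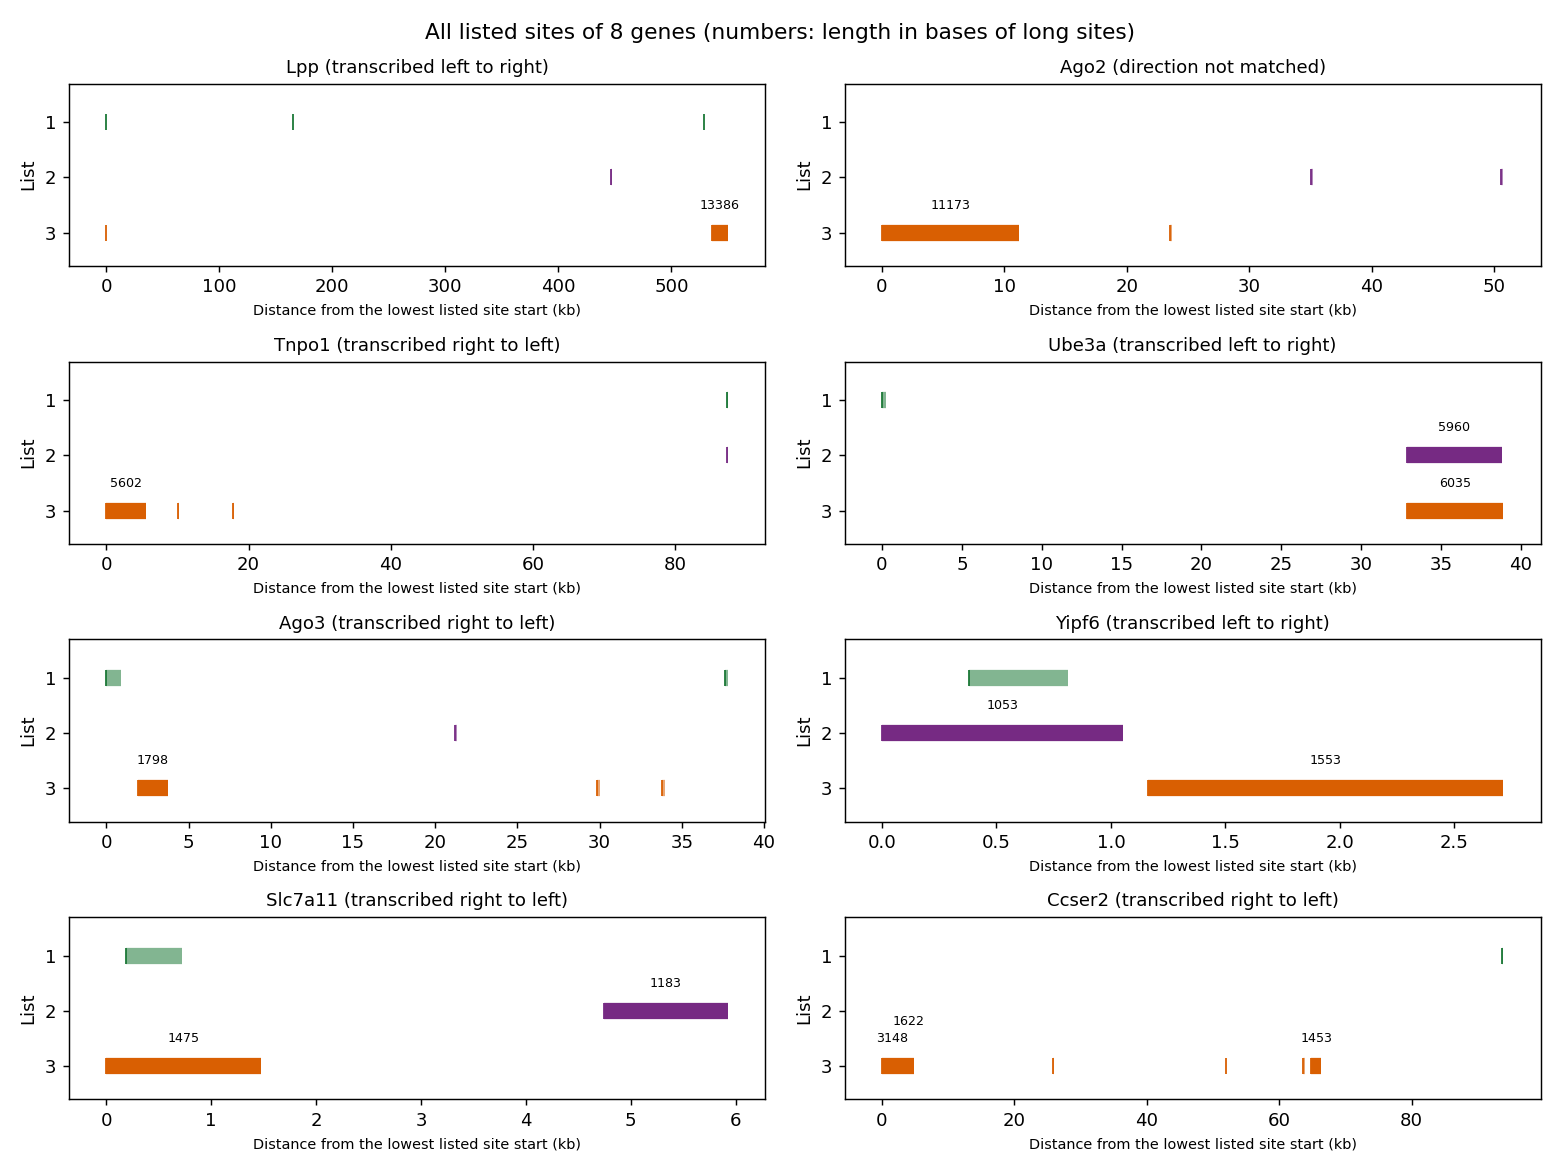
All listed sites of 8 genes, by list (rows) and by distance in kb from the lowest listed site start; full colours with a number are long sites and their length in bases, paler bars are shorter sites. The direction of transcription comes from a RefSeq table and was not matched for Ago2. The long sites of Ube3a in lists 2 and 3 share a start, and those of Yipf6 and Slc7a11 lie beside each other without overlap.

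The highest folds among long sites differed between lists in gene and in size. In list 1, Col1a1, the type I collagen chain, had 46.5, followed by the chromatin protein gene Hmga1 with 21.7 (1237 bases, chromosome 17, 27781412 to 27782648). Then came Cipc, a gene for an inhibitor of the circadian factor CLOCK, with 20.2, Thada with 16.3 and the chromatin protein gene Hmgb1 with 15.2 (1681 bases). Col1a1, Hmga1 and Hmgb1 had no site in lists 2 and 3. The caller's FDR was 38.96% at both Col1a1 and Hmga1.

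In list 2, Amd2 had a fold of 39.6 over 3218 bases and Gm6169, which the files describe as a pseudogene of proteolipid protein 2, had 22.1 over 1030 bases. Their FDRs were 39.35% and 34.23%, against a median of 12.8% for the long sites of list 2. Amd2 has a close relative in Amd1 and Gm6169 in its parent gene, so their reads may come from those copies. Pcyt1b, a gene of phosphatidylcholine synthesis, had 14 over 1026 bases and Slc7a11, the cystine transporter gene, had 14 over 1183 bases. Pafah2, which encodes an enzyme that breaks down platelet-activating factor, had 14 over 1053 bases.

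In list 3 the folds lay closer together. Vcpip1, a deubiquitinase gene, had 18.8, and Yipf6, a gene for a Golgi membrane protein, had 18.4. Ago3, an argonaute gene, had 18.02, Rnf111, a ubiquitin ligase gene of TGF-beta signalling, had 18, and Pus10, a pseudouridine synthase gene, had 17.3. Of the 15 sites of highest fold, the Gm6169 site alone overlapped a site of another list.

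In each list, a somewhat larger share of long than of shorter sites was overlapped by another list. Overlap was counted from 1 shared base and long sites offer more bases, so these shares are not compared at equal length. A site of another list overlapped 28.9% of long sites against 26.7% of shorter sites in list 1, 38.4% against 32.6% in list 2 and 25% against 21.2% in list 3. Over the lists this was 30.8 ± 6.87% for long sites and 26.8 ± 5.71% for shorter sites (SD, n = 3). These SDs describe how the levels vary between lists. They do not measure the difference within a list, which was not tested. Counted by bases, 26.1 ± 7.91% of long and 25.9 ± 5.42% of shorter sequence was covered by another list (SD, n = 3). Because regions of all lists were left out by the rule, these shares are lower than over all sites.

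By score, 29.7% of the 185 long sites with a score under 70 were overlapped, and 24.2% of the 66 with a score of 500 or more. For shorter sites the shares were 26% of 5926 and 26.8% of 97. With the regions of all lists kept, 32.3% of the weakest and 28.6% of the strongest long sites were overlapped. Since overlap entered the rule, these shares are a description.

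Of the 1062 long sites, 747 (70.3%) had no partner in another list, 228 met a long site and 87 met shorter sites alone. Meeting 2 or more sites of other lists was rare, with 9 long sites. The rule lowers this count, since it left out every long site that met sites of both other lists. Whether long sites are a run of pieces in another list therefore cannot be read from it.

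Where sites of 2 lists did overlap, the bounds of long sites rarely matched at both ends. The same start and end were found for 3.85%, 19.7% and 15.6% of overlapped long sites in lists 1, 2 and 3, against 73.9%, 80.5% and 85.5% of overlapped shorter sites. A single equal bound was seen for 65.4%, 54.9% and 48.9% of overlapped long sites, against 19.3%, 14.7% and 13% of shorter ones. Among the 114 pairs of overlapping long sites, 24 had both bounds equal, 69 had 1 and 21 had none, and the median pair shared 94.7% of its joint length.

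The equal bound was nearly always the one where transcription enters. Gene direction was matched for 58 of the 69 pairs with a single equal bound, from the RefSeq promoter table of GRCm38, which was used for direction alone. In 57 of the 58 the upstream bound was equal and in 1 the downstream bound (98.3% upstream, exact binomial 95% interval 90.8 to 99.96%). This interval and those that follow cover counting error only. Hs2st1, a heparan sulfate sulfotransferase gene, is an example by bounds: its sites on chromosome 3 ended at 144140475 in both lists 2 and 3 and started at 144135467 and 144135488, with folds of 7.17 and 10.3. Med18, a Mediator subunit gene, had sites of 1208 and 1300 bases in lists 1 and 2 that shared 1 bound, with folds of 12.7 and 9.36.

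The 10 pairs of long sites with both bounds equal and the highest lower fold were all between lists 2 and 3. Gm6169 led with folds of 22.1 and 15.2, at a caller's FDR of 34.23% in list 2 and 18.58% in list 3. Mex3c, which encodes an RNA-binding ubiquitin ligase, had 5.86 and 7.98 over 3005 bases, Brme1, a meiotic recombination gene, 5.83 and 9.29 over 1110 bases, and Csnk1a1, the casein kinase 1 alpha gene, 5.16 and 6.83 over 2636 bases. The Golgi tethering gene Cog8 had 4.83 and 5.82 over 1265 bases, the zinc finger gene Zfp638 4.65 and 9 over 1228 bases, and Nolc1, a nucleolar protein gene, 4.54 and 8.52 over 1519 bases. Ptpdc1, a phosphatase gene, had 4.3 and 7.5, Ccng1, which encodes cyclin G1, 4.24 and 6.11, and D030056L22Rik 4.87 and 6.4. In 9 of these 10 pairs, all but Gm6169, list 3 had the higher fold. The median fold of all long sites was also higher in list 3 (7.18) than in list 2 (5.27), so this is not particular to the pairs.

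**Figure D3:**
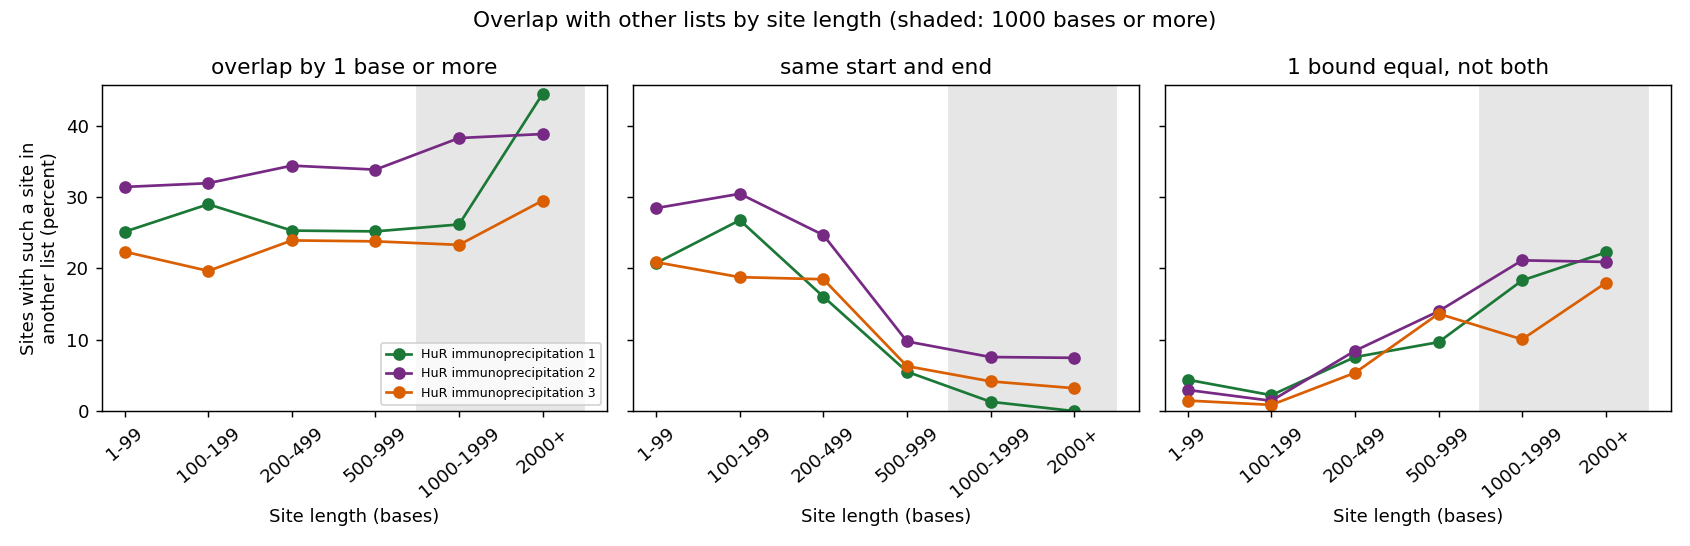
Percent of sites with a site of another list that overlaps by 1 base or more, that has the same start and end, or that has 1 equal bound, by site length in bases and list; the shaded part holds sites of 1000 bases or more. Overlap at 2000 bases or more reaches 44.4% in list 1 (27 sites), 38.8% in list 2 and 29.5% in list 3. There, both bounds are equal for 0, 7.46 and 3.21% of sites in lists 1, 2 and 3, and a single bound for 22.2, 20.9 and 17.9%. In list 3, single equal bounds go from 13.6% at 500 to under 1000 bases to 10% at 1000 to under 2000.

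By gene, 125 of the 906 genes had a long site in 2 lists and 0 had one in all 3. The rule shapes that 0, since it left out 23 genes whose sites of 1000 bases or more lay in regions of all lists. In 113 of the 125 (90.4%) the long sites overlapped, and in 12 they lay apart. Of the 125, 41 had a shorter site in the remaining list. Yipf6 was among those that lay apart, with 97988916 to 97989968 in list 2 and 97990078 to 97991630 in list 3 on chromosome X, and a site of list 1 (97989296 to 97989729, 434 bases) inside that of list 2. Slc7a11 had 50324203 to 50325385 in list 2 and 50319461 to 50320935 in list 3 on chromosome 3. Counting any site, 21.1% of genes with a long site had a site in all 3 lists (191 of 906), against 19.7% of the other genes and 19.9% of all genes with a site. The other genes include the 23 left out, which have a site in every list by definition, so these shares are a description. Ccser2, Tti2 and Gm2115 had 3 long sites each, the most of any gene, and the 3 of Ccser2 were all in list 3.

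Among the listed regions of a gene, the long one was mostly the most downstream. Distance to the ends of the gene was not measured. Of the genes with a long site, 345 had a single region, which has no order, and were not counted. In genes whose sites of all lists formed 2 separate regions, of which 1 was long, the long one was the downstream one in 146 of 169 genes (86.4%, exact binomial 95% interval 80.3 to 91.2%), where an even split is 50%. In genes with 3 regions it was the most downstream in 85 of 101 (84.2%), with 4 regions in 55 of 61 (90.2%) and with 5 in 35 of 47 (74.5%), where even shares are 33.3%, 25% and 20%. Within single lists, genes with 2 sites had the long one downstream in 34 of 42 (list 1), 54 of 60 (list 2) and 96 of 106 (list 3). Position did not enter the rule. Ube3a and Lpp show the pattern: their long sites lay downstream of all other listed sites of the gene.

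The same count in genes without a long site gave 78.6% for regions of 500 bases to under 1000 (165 of 210 genes), 33.8% for 200 to under 500, 52.9% for 100 to under 200 and 43.3% for under 100. These classes are not independent, since the other region of a gene can be of a longer class. Direction was matched for 744 of the 906 genes. Whether a site lies in a last exon, or in the part after the coding sequence, was not tested, because exon bounds on mm39 were not used here. For the same reason no sequence of a site is shown.

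**Figure D4:**
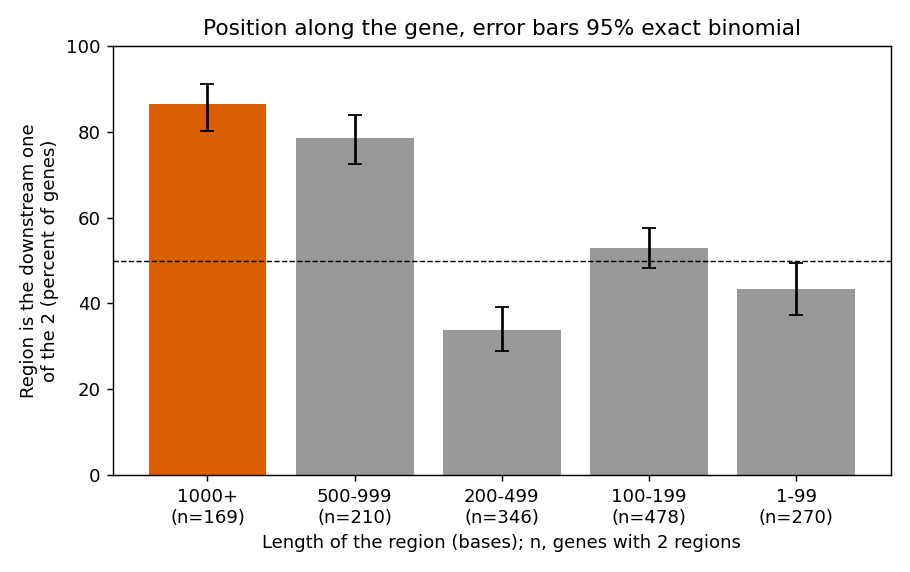
Percent of genes with exactly 2 listed regions in which the region of the given length (bases) is the downstream one, with exact binomial 95% intervals; orange is 1000 bases or more, grey the shorter classes in genes without a long site, and the dashed line is 50%. Regions of 1000 bases or more reach 86.4% and those of 500 bases to under 1000 reach 78.6%.

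Zinc finger genes stood out by count among the gene lists. The list was drawn by gene name. Many such genes encode DNA-binding transcription factors, often with a row of fingers in a single last coding exon, but a name does not show this for every member. Of 187 with any site, 62 (33.2%, exact binomial 95% interval 26.5 to 40.4%) had a long site, against 14.4% of all 6277 genes with a site and 13.9% of the genes outside the list. List 3 carried most of this: 37.5% of its 136 zinc finger sites were long, against 7.08% of all its sites, while the shares were 14.4% against 5.91% in list 2 and 4.17% against 3.81% in list 1. Without list 3, 18 of 139 zinc finger genes (12.9%) had a long site, against 8.7% of all genes.

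The highest folds of the zinc finger list were at Zfp442 with 12.8 over 1416 bases and Zfp398 with 11.6 over 1604 bases, both in list 3. Zfp626 followed with 9.9 over 1202 bases in list 2 and a separate site of 9.05 over 1324 bases in list 1, and Zfp654 had 9.61 over 1125 bases in list 3. Many of these genes belong to families of similar sequence, among them Zfp966, Zfp969, Zfp971 and Zfp973 on chromosome 2, so reads may be split between copies. Of the 71 long zinc finger sites, 16 (22.5%) overlapped a site of another list. The long site was the most downstream in 12 of 25 zinc finger genes with 2 or more regions (48%); the difference from other genes was not tested.

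RNA stability factors had a long site in 7 of 29 genes with a site (24.1%, against 14.4% of all genes). They had 3.59 sites per gene. By site, 7 of their 101 sites outside regions of all lists (6.93%) were long, against 6.07% of all such sites. Ago3 and Ago2 led with the folds given above. Ythdf3, a reader of methylated adenine in mRNA, had 15.7 over 2687 bases in list 3, and Zc3h12a, an RNase gene that limits inflammatory mRNAs, had 9.18 over 1381 bases in list 1. The deadenylase gene Pan3, Celf2 and Rc3h1 were the others, and 0 of the 7 had a long site in 2 lists. Reported HuR targets had a long site in 5 of 17 (29.4%): Hmgb1, the apoptosis protease gene Casp2 (fold 11, 2163 bases, list 3), Ccnb1, which encodes cyclin B1 (5.82, 1131 bases, list 3), Bcl2, a blocker of apoptosis (5.73, 2100 bases, list 2), and Xiap, a caspase inhibitor gene (5.56, 4715 bases, list 3). Each was listed as long in 1 immunoprecipitation, and the Xiap score of 56.4 was low. By site, 5 of the 34 sites of reported targets outside regions of all lists (14.7%) were long. The list of reported targets was written from general knowledge of the field.

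By share of genes, the lipid lists lay near or below the background of 14.4%. By site outside regions of all lists, 6.38% were long for triglyceride synthesis and 8% for fat absorption, against 6.07% of all such sites. Triglyceride synthesis had 2 of 15 genes (13.3%), and 1 without list 2. Agpat1, an acyltransferase gene, had a site of 1197 bases with equal bounds on chromosome 17 (34831227 to 34832423), with folds of 4.03 and 5.24 in lists 2 and 3. Agpat5, of the same family, had 1700 bases with a fold of 3.74 in list 2. Agpat1 was also the member of the fat absorption list with a long site, 1 of 10 genes.

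The other lists gave shares of genes on both sides of the background. Of sites outside regions of all lists, 6.07% were long. The share was 6.13% for solute carriers and ABC transporters, 3.56% for ubiquitin ligases and 4.37% for growth signalling genes. Chromatin modifiers had 2.37%, genes with long coding exons 3.01%, matrix and adhesion genes 3.23% and ribosomal protein genes 0%. Differences between these shares were not tested. Solute carriers and ABC transporters had 18 of 123 genes (14.6%), led by Slc7a11, Slc35g1 (11.9, list 3), the nucleotide sulfate transporter gene Slc35b2 (11.2, list 1) and Slc12a2, the sodium, potassium and chloride cotransporter gene (10.6, list 3). Slc25a32, a mitochondrial carrier gene, had overlapping long sites in lists 1 and 3 with folds of 6.82 and 10.1. Ubiquitin ligases had 8 of 52 (15.4%), with Rnf111, Trip12 (11.3, list 3) and Fbxo11 (10.2, list 3) among those of highest fold. Without list 3, all genes with a long site numbered 455 in place of 906, or 8.7% of genes with a site in place of 14.4%. Solute carriers and ABC transporters with a long site went from 18 to 8, and ubiquitin ligases from 8 to 2. RNA stability factors went from 7 to 4, reported HuR targets from 5 to 2 and chromatin modifiers from 6 to 2. Whether any of these falls differs from that of all genes was not tested.

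Growth signalling genes had 7 of 50 (14%), and 3 without list 2. Among them were Jak1 (9.17, list 3), Braf (8.57, list 2) and Met (8.21, list 3), all kinase genes. The Src family kinase gene Yes1 had overlapping long sites in lists 1 and 3, with folds of 8.68 and 8.06. Chromatin modifiers had 6 of 62 (9.68%), with Nsd2 (6.51, list 2), Jarid2 (6.3, list 2), Atrx (6.06, list 3) and Kat2b (5.76, list 3) highest. Genes known for a coding exon of several kilobases had 4 of 41 (9.76%), Atrx, Rlf, Zeb2 and Ncoa6, and 2 without list 2 or without list 3. Matrix and adhesion genes had 2 of 22 (9.09%), Col1a1 in list 1 and Itgb1 in list 3, and ribosomal protein genes 0 of 8.

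**Figure D5:**
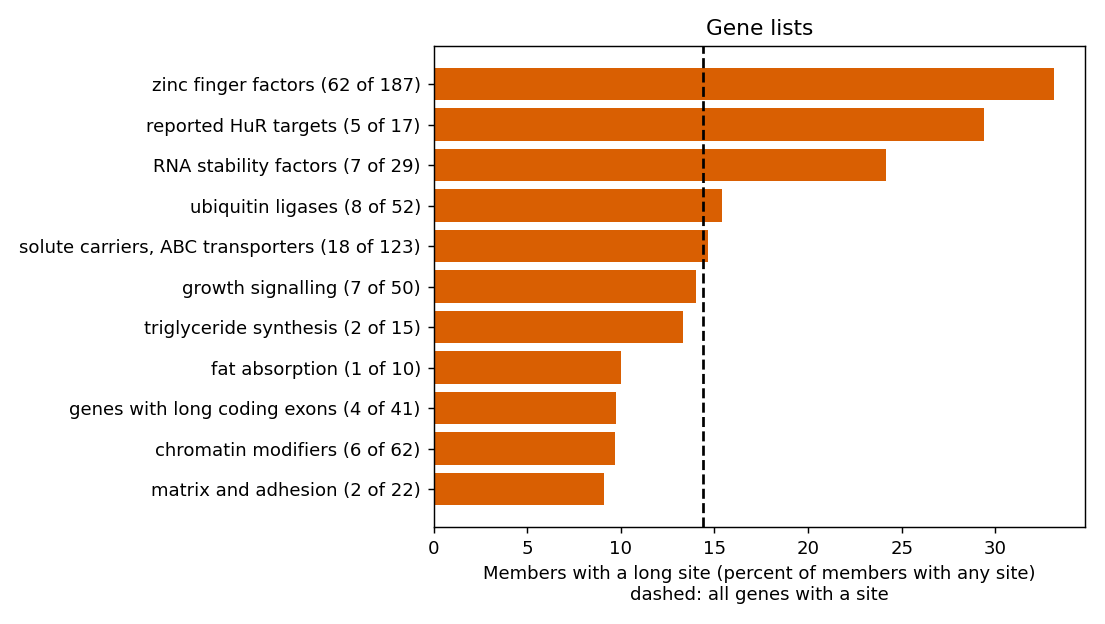
Percent of the genes with any site in each list that have a long site, with counts in the labels; lists with fewer than 10 such genes are left out, and the dashed line is 14.4%, the share over all genes with a site. Zinc finger factors reach 33.2% and matrix and adhesion genes 9.09%.

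By the annotations in the files, genes with a long site were set beside all other genes with a site. Each share below is of the genes that carried an annotation of the same kind. Of the genes with a long site these were 753 for biological process, 818 for molecular function and 819 for cellular component. Regulation of transcription was annotated for 15.9% of such genes with a long site against 11.9% of such other genes. ATP binding was annotated for 8.07% against 12.3% and plasma membrane for 12.7% against 16.7%. Nucleus was annotated for 41.1% against 43.2%, RNA binding for 6.23% against 6.66%, endoplasmic reticulum for 9.89% against 8.1% and lipid metabolic process for 2.66% against 2.93%. Among KEGG pathways, metabolic pathways held most genes with a long site, 57 of 484 (11.8%), followed by PI3K-Akt signaling with 24 of 121 (19.8%), where 12.1% of genes in any pathway had a long site. Jak1, Met, Itgb1 and Col1a1 were among the 24. Endocytosis had 18 of 134 and MAPK signaling 18 of 110. These differences were not tested.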

How the data were processed

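Sites of 3 HuR immunoprecipitations from CT26.WT cells were used. Per the submitters' processing notes, FastQC, cutadapt 1.9.3, STAR and HISAT2 2.0.4 were used on build mm39; site names carry the prefix of the MACS caller, whose version, settings and control are not stated there. The deposited lists hold part of the calls: the highest site numbers were 35258, 37141 and 39806. Per the file headers, the fold is the caller's ratio, the score is the negative log10 of the p times 10, and the FDR is read as percent from its range; all are the authors' deposited values. The length column, deposited as a score-like whole number, equals end minus start at every site.

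Overlap meant at least 1 shared base of half-open intervals; starts are printed counted from 1. Interval functions were tested on simulated data. Genes carry the files' names. Direction came from RefSeq (GRCm38). Biological process cells of 1641 sites were not analysed here. Named sites were the 10 longest, the 5 highest folds per list, up to 10 long pairs with equal bounds, up to 4 members per gene list by fold, genes with most long sites and the 3 nearest the limit on each side; genes in other sentences were chosen after their values were seen. A few sites that this rule names are not reported here. Members and gene lists were chosen with earlier results of these data known. The counts by position, equal bound, score class, zinc finger genes per list and annotation term were added after the data were seen. Intervals are exact binomial 95% intervals (scipy 1.17.1). No p-value was computed. Alternatives covered length limit, overlap, score, FDR, kept regions and leaving out each list.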

Additional observations from a re-analysis of the deposited data

How the results depend on the processing

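No paired analysis was possible because the deposited values describe sites of single immunoprecipitations, without a matching IgG value. A limit of 500 bases gave 2829 long sites in 2166 genes, median scores of 96.9, 92.5 and 98.8 in lists 1, 2 and 3, 20.0% of genes in all lists and 242 gene list memberships, against 122 at 1000 bases. A limit of 1500 bases gave 480 sites in 424 genes, a median score of 142 in list 3, 20.0% of genes in all lists and 70 memberships. The counts follow from the limit itself; the cause of the other shifts was not tested. An FDR at or under the median of each list left 514 long sites in 463 genes. A score of 70 or more gave 18.2% of shorter sites overlapped and 13.2% of genes with a long site in all lists. That setting compares fewer sites and forms the merged regions anew, and the cause of the shifts was not tested. With equal start and end required, 4.52% of long sites were shared. Leaving out each immunoprecipitation gave 498 to 882 long sites, 455 to 785 genes, 8.74 to 18.9% of long and 9.59 to 16.5% of shorter sites overlapped, 38.5 to 42.7% of genes in both remaining lists and 47 to 111 memberships; without list 2, 8.74% of long sites were overlapped, below the 9.59% of shorter sites. The lowest numbers of long sites, genes and memberships were those without list 3. Median folds and FDRs by list stayed within the spread between lists at both limits and with the regions of all lists kept. Added after the data were seen: the long region was downstream in 85% of genes at 500 bases, 84.1% at 1500, 86.1% with regions of all lists kept and 82.6 to 88.4% without each immunoprecipitation. The upstream bound was equal in 29 of 30, 11 of 11 and 17 of 17 pairs without immunoprecipitation 1, 2 and 3. These counts split the same 58 pairs by the lists they join, so they restate the 57 of 58 and are no further check. As depth is unknown and part of the calls was deposited, a long site without a partner may have one among calls not listed.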

Other observations

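The 49 sites of 1000 bases or more that the rule left out lay in 23 of the 195 regions with a site of all 3 lists, in 23 genes, and made up 8.33% of the 588 sites in such regions, against 6.07% for long sites among the sites outside them.

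Genes named by the Gm series made up 21 of the 906 genes with a long site (2.32%), against 35 of 5371 other genes (0.652%). Long sites were found on every chromosome with listed sites, from 3.27% of the sites of chromosome 15 to 8.1% of those of chromosome 3. The long sites of lists 1, 2 and 3 held 155, 230 and 386 distinct folds, and the most frequent folds, 5.61 in list 2 and 7.5 in list 3, occurred at 7 sites each.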
